A study of Mus musculus with 3 samples.

Results

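TFAP2A binding was mapped around 5 receptor genes through which melanocytes, the pigment cells of the skin, receive growth and pigment signals: Kit, Met, Erbb3, Ednrb and Mc1r. TFAP2A (also AP-2alpha) is a DNA-binding transcription factor, and its sites were found by chromatin immunoprecipitation with sequencing (ChIP-seq), in which DNA held by the factor is recovered with an antibody and sequenced. A peak is a stretch of genome where the recovered DNA exceeded background, and its summit is the position of highest signal. The members were all peaks whose summit lay in the body of one of these genes or within 100 kb of it. They numbered 21 of 18528 peaks in replicate 1 and 37 of 21459 in replicate 2, and 19 of them were shared, that is, the peaks of both lists overlapped, if only by 1 bp. Over the whole series 16134 peaks were shared when counted from replicate 1, and 16305 when counted from replicate 2.

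The cells were melan-a, an immortalised line of mouse melanocytes with the genotype Cdkn2a tm1RDp/tm1RDp, derived from normal embryonic skin and kept in serum with TPA, a phorbol ester, and cholera toxin. The series held 3 samples: 2 TFAP2A ChIP replicates, made with the 3B5 antibody against AP-2alpha on formaldehyde-fixed cells, and 1 input without precipitation, for which no table was analysed here. All samples came from this 1 line in 1 condition, so there were no groups to compare and no test between groups. Per the labels the ChIP DNA came from 2 independent experiments per antibody, and the spread given below is that between the 2 lists. Read depth was unknown for both lists. The strength of a peak is its fold enrichment, the ratio of ChIP signal to background given in the deposited lists. It ran from 2.01 to 64.6 in replicate 1 with a median of 5.56, and from 2.00 to 56.4 in replicate 2 with a median of 5.75.

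Kit, Met and Erbb3 are receptor tyrosine kinases at the cell surface. Kit binds the Kit ligand (stem cell factor) and is needed for melanoblasts to migrate and survive, Met binds hepatocyte growth factor, and Erbb3 binds neuregulins and signals through a partner because its own kinase is weak. Ednrb and Mc1r are G protein-coupled receptors: Ednrb receives the endothelin 3 signal that the neural crest precursors of melanocytes require, and Mc1r binds melanocortins and sets the balance of black to yellow pigment, with agouti as its antagonist.

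Sequence at the summits is shown first, because the strongest shared peak of each gene and the shared peak nearest to its start site carry most of what follows. Each line gives 50 bp to both sides of the replicate 1 summit, read 5′ to 3′ from the plus strand of build mm9. Capitals mark the TFAP2 consensus GCCNNNGG on either strand, and a run of 9 capitals is 2 overlapping matches of 8 letters.
Ednrb strongest shared peak, chr14:104290978-104291078, plus strand: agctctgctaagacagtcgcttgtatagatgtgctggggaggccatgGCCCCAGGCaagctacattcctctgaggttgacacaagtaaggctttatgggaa
Met strongest shared peak, chr6:17409722-17409822, plus strand: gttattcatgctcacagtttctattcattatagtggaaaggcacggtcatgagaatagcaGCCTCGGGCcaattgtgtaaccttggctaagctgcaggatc
Met shared peak nearest its start, chr6:17413383-17413483, plus strand: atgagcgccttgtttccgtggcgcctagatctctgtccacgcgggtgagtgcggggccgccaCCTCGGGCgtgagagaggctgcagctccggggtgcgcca
Mc1r strongest shared peak, chr8:125928238-125928338, plus strand: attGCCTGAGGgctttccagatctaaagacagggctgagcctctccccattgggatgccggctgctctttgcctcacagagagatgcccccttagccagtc
Mc1r shared peak nearest its start, chr8:125930239-125930339, plus strand: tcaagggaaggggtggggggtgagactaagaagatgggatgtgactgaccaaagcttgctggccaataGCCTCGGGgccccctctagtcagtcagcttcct
Erbb3 strongest shared peak, chr10:128091038-128091138, plus strand: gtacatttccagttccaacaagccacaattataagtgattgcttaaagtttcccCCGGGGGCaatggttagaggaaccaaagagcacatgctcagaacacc
Erbb3 shared peak nearest its start, chr10:128027033-128027133, plus strand: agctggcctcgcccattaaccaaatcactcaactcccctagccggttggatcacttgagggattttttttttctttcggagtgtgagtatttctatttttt
Kit single shared peak, chr5:76095680-76095780, plus strand: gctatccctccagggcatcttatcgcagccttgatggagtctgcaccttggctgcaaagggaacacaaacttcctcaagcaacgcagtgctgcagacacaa

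The summits of both strongest peaks, at Ednrb and Met, held the full palindrome, GCCCCAGGC at Ednrb and GCCTCGGGC at Met. The Kit summit and the Erbb3 summit nearest the start held no match in this window. A pair of replicate 2 summits at Ednrb are shown as well, since they belong to peaks that replicate 1 lacked: the strongest of these, without a match, and the one at the Ednrb start, with 1 match.
Ednrb strongest peak of replicate 2 alone, chr14:104157486-104157586, plus strand: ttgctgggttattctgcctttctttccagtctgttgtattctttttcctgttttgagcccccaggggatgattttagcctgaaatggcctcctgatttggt
Ednrb peak of replicate 2 alone at its start, chr14:104243590-104243690, plus strand: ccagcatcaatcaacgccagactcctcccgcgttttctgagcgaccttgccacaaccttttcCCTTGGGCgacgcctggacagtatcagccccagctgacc

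All 5 receptor genes had at least 1 shared peak in their window. At least 1 summit in the window was common among genes in general: 74.2% of the 22367 protein-coding genes had one in replicate 1, 76.8% in replicate 2 and 71.7% had a shared one. The members did not stand apart by presence, then, and what differed between them was number, place and strength. Kit had 1 peak in replicate 1 and 7 in replicate 2, of which 1 was shared. Met had 8 and 9 with 7 shared, and Erbb3 had 6 and 7 with 6 shared. Ednrb had 3 and 11 with 2 shared, and Mc1r had 3 in each, all 3 shared. The median number of shared peaks was 3 over the 5 receptors and 2 over all protein-coding genes.

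**Figure D1:**
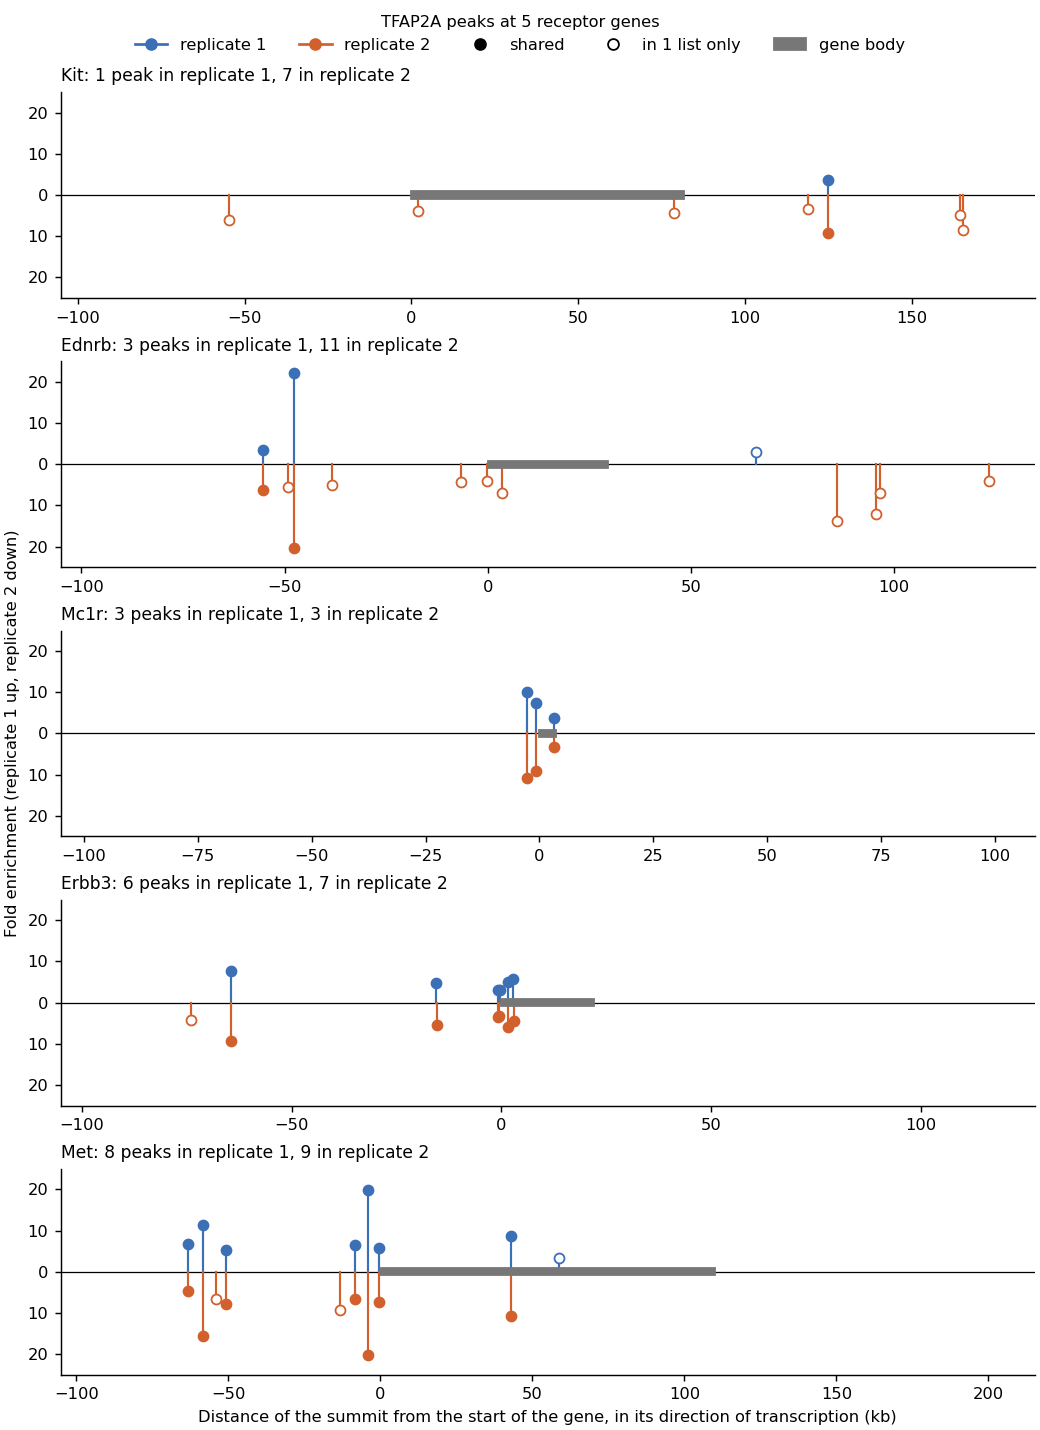
Fold enrichment of each TFAP2A peak (vertical axis, replicate 1 up and replicate 2 down) against the distance of its summit from the start of the gene in kb, in the direction of transcription, with 1 panel per gene; filled circles are shared peaks, open circles peaks of 1 list only, and the grey bar the gene body. Met, Erbb3 and Mc1r show stems that mirror each other, while Kit and Ednrb show mostly open circles of replicate 2.

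The windows differ in length and in what else they hold, so numbers were also taken per 100 kb. Shared peaks per 100 kb were 0.355 for Kit, 0.871 for Ednrb, 1.47 for Mc1r, 2.26 for Met and 2.70 for Erbb3. By this density, 30.8% of protein-coding genes lay below Kit, 51.9% below Ednrb, 72.1% below Mc1r, 85.6% below Met and 91.1% below Erbb3. These shares held for windows of 100 kb on each side and moved with the window and the counting rule. With 10 kb on each side they were 0% for Kit and Ednrb, 84.1% for Met, 98.8% for Erbb3 and 99.6% for Mc1r. The 0% means that Kit and Ednrb had no shared peak within 10 kb, tied with every other gene without one. How many genes shared that tie was not computed. When only peaks with the gene as nearest start site were counted, for all genes alike, they were 70.7% for Kit, 90.5% for Ednrb, 93.3% for Mc1r, 98.0% for Erbb3 and 98.9% for Met. Kit had the lowest share under each of these rules, tied with Ednrb at 10 kb. The place of Kit and Ednrb relative to the other 3 genes depended on the replicate. In replicate 1 alone 28.2% of genes lay below Kit and 61.3% below Ednrb, whereas in replicate 2 alone the values were 82.3% and 97.5%. For the other 3 genes the same values in replicates 1 and 2 were 67.8% and 62.4% at Mc1r, 87.9% and 89.3% at Erbb3, and 87.0% and 86.7% at Met.

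Peaks close to a start site were found at 3 of the 5 genes in both lists. A summit counted as proximal when it lay at most 5 kb before or 1 kb past a start site annotated for the gene. In replicate 1 there were 3 such genes (Met, Erbb3 and Mc1r), beside 18.6% of all protein-coding genes. In replicate 2 there were 4, with Ednrb added, beside 20.9%. A shared proximal peak was present at 3 of 5, beside 17.0% of all genes, and each of these 3 had 2 of them. In the stronger 50% of each list 2 genes kept a shared proximal peak, and Erbb3 did not: 1 of its 6 shared peaks was left, at -64380. With 5 genes these shares carry little precision.

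Met (ENSMUSG00000009376.8, chr6 from 17413800 to 17523980, plus strand) had the most shared peaks of the 5 receptors in windows of 100 kb. Within 50 kb Erbb3 had 5 and Met 4, and within 10 kb both had 4. The 7 shared Met peaks formed a group far upstream, a group at the start and 1 site in the body. Distances below are in bp from the 5′ end of the gene, negative when upstream, and enrichments are given as replicate 1 and replicate 2, then as mean ± SD of the 2. The strongest lay at -4028 in replicate 1 and -4003 in replicate 2, with enrichments of 19.8 and 20.2 (20.0 ± 0.310, n = 2), so the lists differed there by little. In replicate 1 97.5% of all peaks were weaker and in replicate 2 98.1%. The summit nearest the start, at -367 and -352, had 5.90 and 7.31 (6.61 ± 0.992), and the one at -8442 and -8454 had 6.41 and 6.72 (6.57 ± 0.221).

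The far group of Met lay 50.9 to 63.2 kb upstream and held 3 shared peaks. The middle one, at -58247 and -58207, was the second strongest of the gene with 11.3 and 15.6 (13.5 ± 3.04). Its neighbours had 6.67 and 4.60 (5.64 ± 1.47) at -63110 and -63183, and 5.27 and 7.73 (6.50 ± 1.74) at -50857 and -50871. The first of these was the only shared Met peak that was weaker in replicate 2. The site in the body, in intron 3 at 43109 and 43127, had 8.77 and 10.8 (9.77 ± 1.42). Of the Met peaks found once, replicate 1 had 1 in intron 4 (3.23, at 58650) and replicate 2 had 2, at -53870 with 6.70 and at -13135 with 9.24. The last was stronger than 80.2% of its list, yet the nearest replicate 1 summit lay 4693 bp away. Capza2 was the only other protein-coding gene in the window, and all Met peaks of both lists had a Met start site as the nearest.

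Erbb3 (ENSMUSG00000018166.8, chr10 from 128004579 to 128026708, minus strand) had weaker peaks, 4 of them packed around its start. In intron 1 the summits at 1530 and 1534 had 4.97 and 5.86 (5.42 ± 0.632), and those at 2871 and 2900 had 5.68 and 4.47 (5.08 ± 0.858). Just upstream, the summits at -375 and -495 had 2.96 and 3.21 (3.09 ± 0.174), and those at -898 and -893 had 3.12 and 3.53 (3.33 ± 0.293). Both upstream peaks were among the weakest of their lists, of which 5.12% to 10.9% were weaker.

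The strongest Erbb3 peak lay far from the gene, at -64380 and -64386, with 7.78 and 9.28 (8.53 ± 1.06). Its nearest start site was that of Ikzf4, and the peak at -15489 and -15376 (4.78 and 5.36, 5.07 ± 0.411) was nearest to Gm9182. The single peak of replicate 2 alone, at -74033 with 4.14, was nearest to Suox. The Erbb3 window held 11 other protein-coding genes, and 4 of its 6 shared peaks had Erbb3 as the nearest. Which gene a peak acts on was not measured.

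Mc1r (ENSMUSG00000074037.2, chr8 from 125930982 to 125934642, plus strand) was the only receptor whose lists held the same peaks in full. All 3 lay within 5.90 kb, and none of the rest of the window held a summit, although 8 other protein-coding genes lie in it. Both upstream peaks were broad, with widths of 909 and 1052 bp in replicate 1 and 915 and 1024 bp in replicate 2, against medians of 423 and 358 bp over all peaks. The third was 501 bp wide in replicate 1 and 318 bp in replicate 2. Upstream, the enrichments were 10.0 and 10.7 (10.3 ± 0.447) at -2694 and -2730, and 7.47 and 9.10 (8.29 ± 1.15) at -693 and -717. The third, at 3209 and 3174, lay in the untranslated part of the single exon with 3.68 and 3.36 (3.52 ± 0.222). That summit was nearer to the start of Tubb3 than to that of Mc1r. All Mc1r summits also lay inside the gene model Gm20388, which spans this region.

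Ednrb (ENSMUSG00000022122.7, chr14 from 104213842 to 104243390, minus strand) held the strongest of all shared member peaks. Its summit lay at -47638 and -47640, with enrichments of 22.1 and 20.3 (21.2 ± 1.26), and 98.3% and 98.2% of the lists were weaker. The peak spanned 104290354 to 104291366 in replicate 1 and 104290590 to 104291349 in replicate 2. The second shared peak, at -55248 and -55218, had 3.40 and 6.32 (4.86 ± 2.07), a ratio of 1.86. Replicate 1 had 1 further peak, at 66027 with 3.04, which replicate 2 lacked.

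Replicate 2 listed 9 further peaks at Ednrb, spread over both flanks and the gene. At the start itself a summit at -250 had 4.14, and 1 in intron 1 at 3471 had 7.02. Upstream there were 4.19 at -6509, 5.11 at -38263 and 5.55 at -49169. Downstream of the gene lay the strongest, 13.7 at 85854 and 12.0 at 95641, as well as 6.86 at 96539 and the weakest, 3.98 at 123337. The last 3 had Slain1, outside the window, as the nearest start site. Apart from the summit at -49169, which lay 1531 bp from the strongest shared summit, each was at least 9375 bp from any replicate 1 summit.

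Kit (ENSMUSG00000005672.6, chr5 from 75970941 to 76052747, plus strand) had the fewest shared peaks. The single one lay at 124789 and 124758, 43.0 kb past the end of the gene, with 3.64 in replicate 1 and 9.10 in replicate 2 (6.37 ± 3.86). This ratio of 2.50 was the highest of the 19 shared member peaks. No peak of either list was proximal to a Kit start site. In replicate 2 the remaining summits had 6.01 at -54614, 3.80 in intron 1 at 2080, 4.32 in intron 20 at 78838, 3.33 at 119034, 4.92 at 164581 and 8.44 at 165318. The nearest replicate 1 summit was 5755 bp away for the peak at 119034 and at least 39792 bp away for the other 5. No other protein-coding gene lay in the Kit or the Ednrb window.

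**Figure D2:**
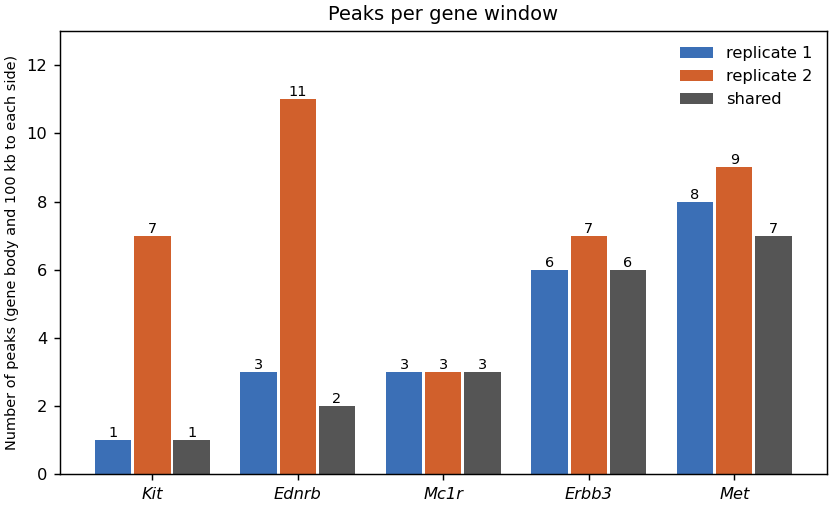
Number of TFAP2A peaks (vertical axis, starting at 0) in the gene body and 100 kb to each side of it, for replicate 1, replicate 2 and peaks shared by both. Kit (1 and 7) and Ednrb (3 and 11) differ between the replicates, and Mc1r, Erbb3 and Met differ by at most 1.

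The replicates thus matched at 3 receptors and not at the other 2. Of the 21 replicate 1 peaks, 19 were shared (90.5%, exact Clopper-Pearson 95% interval 69.6 to 98.8), beside 87.1% of all replicate 1 peaks. Of the 37 replicate 2 peaks, 19 were shared (51.4%, 34.4 to 68.1), beside 76.0% of all replicate 2 peaks. The intervals cover counting error over peaks only. At Kit and Ednrb together 3 of 18 replicate 2 peaks were shared (16.7%), and at Mc1r, Erbb3 and Met 16 of 19 (84.2%). As mean ± SD of the 2 lists, the number of peaks was 4 ± 4.24 at Kit and 7 ± 5.66 at Ednrb, against 6.50 ± 0.707 at Erbb3 and 8.50 ± 0.707 at Met, and 3.00 with no spread at Mc1r.

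A gap of this size was uncommon among genes. Kit and Ednrb were the 2 of 5 receptors with at least 6 more summits in replicate 2, beside 0.255% of protein-coding genes, which were 57 genes in 39 separate loci because neighbours share windows. Ednrb was the 1 of 5 with at least 8 more, beside 0.0402%, or 9 genes in 8 loci: Bace2, Col4a2, Ednrb, Kbtbd12, Mgll, Tnfrsf19, Pip5k1b, Gm20388 and Ntm. The opposite gap, of at least 6 more summits in replicate 1, occurred at 5 genes. These limits of 6 and 8 were chosen after the counts at Kit and Ednrb were seen, so the shares are descriptions. Among the 19 genes of the ligands and relatives described below, the widest gap in favour of replicate 2 was 2.

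**Figure D3:**
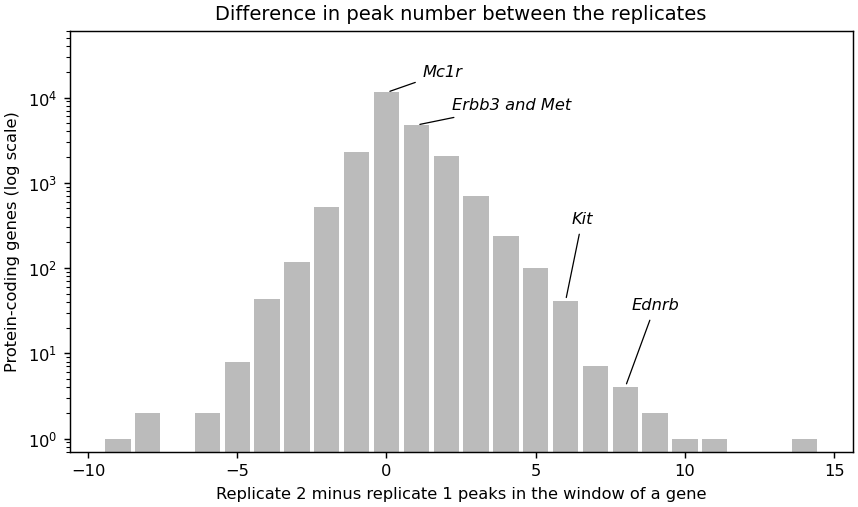
Number of protein-coding genes (vertical axis, log scale) against the replicate 2 minus replicate 1 number of summits in the window of the gene. Mc1r lies at 0, Erbb3 and Met at 1, Kit at 6 and Ednrb at 8, in the right tail.

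The counts were also taken from reduced lists. With the same number of top peaks by -log10 p from each list, Kit had 1 and 6 and Ednrb 3 and 9. All member peaks had a -log10 q of at least 5.51, so a limit of 5 could remove none of them. When only the stronger 50% of each list was kept, Kit had 0 and 3 and Ednrb 1 and 6. The gap did not extend outwards: from 100 to 500 kb outside the gene, Kit had 3 peaks in each replicate, all shared, and Ednrb had 4 and 5 with 3 shared. Read depth and other differences between the libraries were not tested.

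Some peaks of replicate 2 alone at these genes ranked high among all such peaks. Enrichment of the peaks of replicate 2 alone at the 5 genes ran from 3.33 to 13.7 with a median of 5.33, over 18 peaks. Of all replicate 2 peaks with an enrichment of at least 12, 98.6% (98.0 to 99.1) were shared, and 29 of 2117 were not. Both Ednrb peaks at 85854 and 95641 were among those 29, at rank 11 and rank 28 by enrichment of the 5154 peaks that replicate 2 alone listed. The Met peak at -13135 had rank 119 and the Kit peak at 165318 rank 184. In the other direction, all 1921 replicate 1 peaks with an enrichment of at least 12 were shared.

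At the shared peaks the enrichment of the replicates was close. For this, peaks were paired when each had its largest overlap with the other, which gave 19 member pairs among 16069 pairs in all. The member pairs had a median enrichment of 5.90 in replicate 1 and 7.31 in replicate 2, with 6.50 as the median of the pair means. Replicate 2 was higher in 15 of 19, with a median ratio of 1.13 and a range of 0.689 to 2.50. Over all pairs the median ratio was 1.05 and replicate 2 was higher in 9291. All member pairs but the Kit pair, 18 of 19, lay within 2-fold, as did 15815 of all pairs. The summits of a member pair lay 25 bp apart at the median (2 to 120), against 24.0 bp over all pairs.

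**Figure D4:**
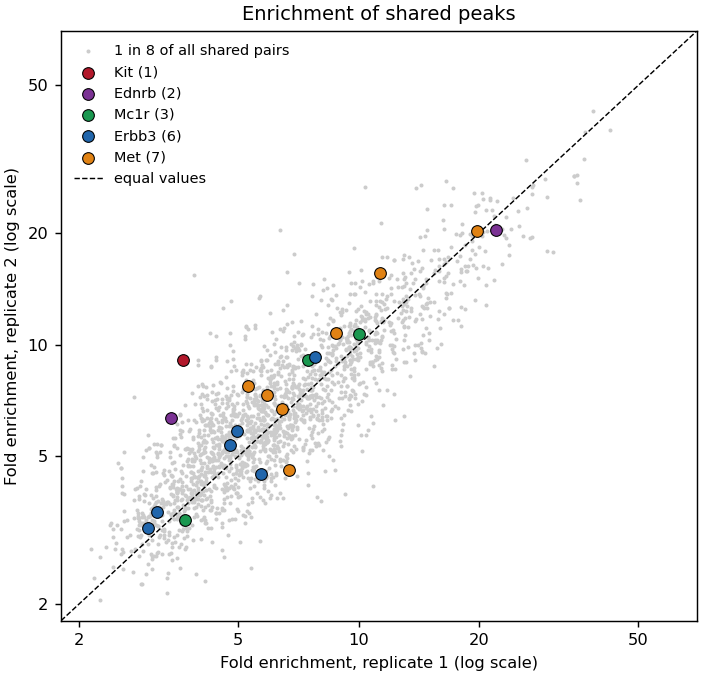
Fold enrichment of shared peak pairs in replicate 1 (horizontal axis) and replicate 2 (vertical axis), both on log scales, for the 19 member pairs by gene and, in grey, 1 in 8 of all pairs; the dashed line marks equal values. Most member pairs lie near the line, the strongest of Ednrb and Met at about equal values, and the Kit pair (3.64 and 9.10) lies farthest above it.

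TFAP2 consensus letters were searched as GCCNNNGG on both strands within 50 bp of each summit. At the shared member peaks 12 of 19 replicate 1 summits held a match (63.2%, 38.4 to 83.7), beside 57.1% of all shared peaks. In equally long windows placed 400 bp left and right of the summits, 6 of 38 held one, and over all shared peaks 15.3% did. Over the full lists the share was 13 of 21 in replicate 1 (61.9%), beside 55.4% of all its peaks, and 18 of 37 in replicate 2 (48.6%, 31.9 to 65.6), beside 58.4%. Of the 18 peaks of replicate 2 alone, 6 held a match (33.3%, 13.3 to 59.0), against 52.9% of all peaks of replicate 2 alone. The interval for these 6 includes that value, so a difference was not detectable with 18 peaks.

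By gene, the shared summits of replicate 1 held a match at 6 of 7 for Met, 3 of 3 for Mc1r, 2 of 6 for Erbb3, 1 of 2 for Ednrb and 0 of 1 for Kit. With replicate 2 summits of the same peaks the counts were 4 of 7, 2 of 3, 4 of 6, 2 of 2 and 0 of 1. The total of 12 of 19 was the same with either set of summits, while single peaks moved in or out as the summit shifted. The longer palindrome GCCNNNGGC, which is contained in the count above, lay at 4 of 19 shared summits (21.1%), beside 19.1% of all shared peaks. Letters of other factors known in melanocytes were few: the M-box TCATGTG, which MITF binds, lay at 1 of 19 (2.01% of all shared peaks), the SOX letters ACAAAGG or ACAATGG at 2 (5.21%), the AP-1 letters TGACTCA at 1 (6.36%), the TEAD letters GGAATG at 2 (10.5%) and the E-box CACGTG at 0 (1.78%). The control letters CGGNNNCG lay at 2 of 19 (5.93%), so counts of this size do not set these letters apart. The shared summit at -898 of Erbb3 held the M-box.

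The ligands of the receptors and members of their gene families give a background for these counts. The ligands were Kitl, which binds Kit, Edn3, which binds Ednrb, Pomc, the precursor of the melanocortins, the agouti gene a, Nrg1, which binds Erbb3, and Hgf, which binds Met. Of these 6 genes, 4 had a shared peak in the window, beside the 71.7% of all protein-coding genes given above, with 4 shared peaks at Kitl, 8 at a, 1 each at Pomc and Nrg1 and none at Edn3 or Hgf, and 1 of the 6, Kitl, had a proximal one. The 13 relatives were Pdgfra, Pdgfrb, Csf1r and Flt3 (kinases like Kit), Ednra, the melanocortin receptors Mc2r, Mc3r, Mc4r and Mc5r, the Erbb family members Egfr, Erbb2 and Erbb4, and Mst1r, the relative of Met. Of these, 9 had a shared peak, with a range of 0 to 7, and 1, Pdgfra, had a proximal one. The 5 receptors had medians of 3 peaks in replicate 1, 7 in replicate 2 and 3 shared. The ligands had medians of 1, 1.5 and 1, and the relatives, like all protein-coding genes, had 2, 2 and 2. The members and these lists were chosen with earlier results in view, so the counts stand as descriptions beside the median of 2 over all genes.

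For 16 of the 19 shared member peaks (84.2%) the nearest protein-coding start site belonged to the receptor itself. The other 3 were the Mc1r peak nearest to Tubb3 and the Erbb3 peaks nearest to Gm9182 and Ikzf4. In replicate 1 it was 18 of 21 and in replicate 2 30 of 37. The same share was not computed over all genes, so these counts do not set the members apart. No other protein-coding gene lay in the Kit and Ednrb windows, 1 lay in that of Met, 8 in that of Mc1r and 11 in that of Erbb3. Distance alone does not tie a peak to a gene, and no expression values were part of these files.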

How the data were processed

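TFAP2A ChIP-seq was analysed from 1 peak list per ChIP replicate (n = 2), called by the authors on each replicate separately. No table of the input was used here. The submitters' processing notes name BWA, MACS 1.4.2 and build mm9 without stating their roles. The deposited layout, with -log10 q-values and summits, is one that a later generation of MACS writes, so which caller made the fold enrichment and q-value columns is uncertain. No source used here gives read filters or depth, so no precision from depth could be computed. Each deposited list holds the position and summit of a peak, its fold enrichment (a ratio) and -log10 p-value and q-value columns. A deposited score column repeats the -log10 p times 10, cut to whole numbers, and was left out. The -log10 p started at 5.05 and 5.06 and the -log10 q at 2.64 in the deposited lists, so weaker regions are missing from the lists.

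Coordinates were used as deposited, with genes from GENCODE mouse version 1 (Ensembl 65) and sequence of mm9 (NCBIM37). Peaks on assembled chromosomes (18490 and 21417) entered the sequence search, and all peaks entered the overlaps. Windows of the 5 genes shared no bases with each other. Named were the 5 receptor genes with their counts, strongest and nearest shared peaks and strongest peaks of 1 list, the listed ligands and relatives, and genes that share a window or own a nearest start site. Further genes were named by the gap between replicates, after their values were seen. Members and lists were chosen with earlier results of these data known. Intervals are exact Clopper-Pearson 95% intervals. There was no test, since the series has 1 condition. Alternatives were stricter and equal-length lists, other overlap rules, windows, site lengths and start site sets, and each replicate alone. Scripts were tested on simulated data and used Python 3.11.15, numpy 2.4.6, pandas 2.3.3, scipy 1.17.1, pysam 0.24.0, matplotlib 3.10.9 and samtools 1.23.1.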

Additional observations from a re-analysis of the deposited data

How the results depend on the processing

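The 19 shared peaks became 9 in the upper 50% of each list, 11 within 10 kb of the genes, and 66 within 500 kb, a window chosen after seeing the data, and the lists taken alone held 21 and 37. The shared 90.5%, above the 87.1% of all peaks, became 51.4% when counted from replicate 2, below the 76.0% of all peaks. The median enrichment of 6.50 rose to 9.77 in the upper 50%, was 28.6 on the -log10 p scale, and was 5.68 and 6.32 in the lists taken alone. The share of shared summits with a TFAP2 match, 63.2%, was 88.9% in the upper 50% (59.4% of all shared peaks), 21.1% with GCCNNNGGC (19.1%) and 78.9% within 100 bp (70.6%), and ran from 48.6% to 61.9% in the lists taken alone. It was above that of all peaks in the shared set (57.1%) and in replicate 1 (55.4%), and below it in replicate 2 (58.4%). The share with the receptor as nearest gene, 84.2%, was 88.9% in the upper 50%, 88.2% with summits within 100 bp, 90.9% within 10 kb, 68.4% with all annotated genes and, by construction, 100% when only such peaks were kept. The 3 genes with a shared proximal peak became 2 in the upper 50%, without Erbb3, and 4 in replicate 2 alone, with Ednrb. Peak counts of single genes were taken to move when they changed by over 1.5 times and other values when they changed by more than the spread between the lists. By this rule 49 values for single genes under an alternative moved and 122 did not. Some of the 122 could not move, so the tally does not measure robustness. The -log10 q limit of 5 removed no member peak. The strongest peak of each gene was the same in both lists, so either list alone had to lie within the SD of its 2 values. The strongest shared peak at Kit, 6.37 as the mean and 3.64 in replicate 1 alone, thus counted as not moved whatever its spread. The share of genes with a lower density than Kit was 30.8% as reported, 70.7% with the nearest start site only, 82.3% in replicate 2 alone and 0% at 10 kb. For Ednrb these values were 51.9%, 90.5%, 97.5% and 0%. Both values of 0% mark a gene without a shared peak within 10 kb, tied with all other such genes. Mc1r rose from 72.1% to 99.6% at 10 kb. Where the causes of these moves do not follow from the rule itself, the cause was not tested. No paired analysis was possible because there is 1 group and no result comes from a test. The limits are 2 lists of unknown depth, lists that end at a threshold, and counts of 1 to 11 peaks per gene, so that a peak missing from a list can be a peak just under its threshold.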

Other observations

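Peak spacing differed between the receptors. At Ednrb replicate 2 summits lay as close as 898 bp to each other and at Kit 737 bp, and the smallest gaps at Erbb3 were 523 bp (replicate 1) and 398 bp (replicate 2). From the first to the last summit the Met peaks spanned 122 kb in replicate 1 and 106 kb in replicate 2, and those of Erbb3 67.3 kb and 76.9 kb, against 5.90 kb at Mc1r in both.

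Farther out, from 100 to 500 kb outside the gene, shared peaks numbered 18 at Met, 13 at Erbb3 and 10 at Mc1r. The lists there held 20 and 19 peaks at Met, 14 and 17 at Erbb3, and 13 and 15 at Mc1r, in replicates 1 and 2.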
